A study of Mus musculus with 16 samples.

Results

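The genes of bile acid synthesis and transport are described here as 10 genes, *Cyp7a1*, *Cyp8b1*, *Cyp27a1*, *Cyp7b1*, *Slc10a1*, *Abcb11*, *Abcb4*, *Abcc2*, *Baat* and *Slc27a5*, chosen by name from the 17003 genes of the deposited expression table. All 10 were found in it. RNA was sequenced from the livers of 16 fed male mice aged 8 weeks, 8 *Fgl1* WT and 8 *Fgl1* LKO, with each library made from a different mouse. Both groups carried *Fgl1* alleles flanked by loxP sites, from which FLPO recombinase had removed the targeting cassette. *Fgl1* LKO mice also expressed CRE recombinase from the albumin promoter, which is active in hepatocytes, so that other liver cells kept the gene. *Fgl1* WT mice were littermates without CRE, named *Fgl1* LWT in the study, and both groups ate standard chow. The FLPO line was on a C57BL/6 background and the albumin-CRE line on B6.Cg, and the labels name no strain. The question asked of these genes was how far their expression differed between livers with and without hepatocyte *Fgl1*, and how they varied from mouse to mouse.

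Bile acids are made from cholesterol in hepatocytes. The classical route starts with CYP7A1, the alternative route with CYP27A1, and the products are joined to taurine or glycine, pumped into bile and taken back up from portal blood. Bile acids restrain their own synthesis through the nuclear receptor NR1H4 (FXR), which induces *Nr0b2* (SHP) in the liver and a hormone from the ileum, and *Cyp7a1* is also known for a daily rhythm.

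Expression was given as FPKM, fragments counted relative to transcript length and to all mapped fragments of the library, so that levels can be compared between genes. *Fgl1*, the targeted gene, separated the labels. It ranged from 158 to 1331 FPKM (median 312) in *Fgl1* WT mice and from 13.2 to 90.0 FPKM (median 50.3) in *Fgl1* LKO mice, without overlap. The livers carried hepatocyte RNA. *Alb*, the most abundant of 6 hepatocyte markers, had a mean of 41750 FPKM. Of 7 markers of bile duct cells, *Spp1* had the highest mean, 58.1 FPKM, and *Slc4a2* had 9.8 FPKM. The means of *Krt7*, *Krt19*, *Cftr*, *Epcam* and *Sox9* were 0.429, 1.46, 0.0394, 1.10 and 1.57 FPKM. One library stood apart from the rest. *Fgl1* LKO replicate 8 had a median correlation of 0.977 with the other libraries across genes, where the other 15 had 0.985 to 0.990. It also had 255 FPKM of *Spp1*, which lay between 20.9 and 76.3 FPKM in the other mice. The mouse numbers in the library names fall into 4 runs, 36 to 38, 48 to 55, 60 to 64 and 69 to 72, and what the runs stand for is not given. The first holds 3 *Fgl1* WT mice and no *Fgl1* LKO mouse, so that this run and the genotype cannot be told apart within it.

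Levels of the 10 genes spanned a wide range. The mean over the 16 mice was 433 FPKM for *Slc10a1*, 425 for *Slc27a5*, 333 for *Cyp27a1*, 296 for *Cyp8b1*, 180 for *Abcb11*, 161 for *Baat*, 127 for *Cyp7b1*, 78.5 for *Abcc2*, 46.1 for *Abcb4* and 27.1 for *Cyp7a1*. Neighbours in this order were compared within mice by exact permutation of the signs of the log2 differences. *Slc10a1* was above *Slc27a5* in 9 of 16 mice (exact permutation p = 0.958), and *Cyp7b1* was above *Abcc2* in 9 of 16 mice (exact permutation p = 0.0893), so that neither pair differed beyond its spread. The order was itself taken from the means of these mice. The other 7 neighbouring pairs differed within mice at an exact permutation p of at most 0.0327, adjusted for the 9 pairs at most 0.0421. *Baat* and *Cyp7b1* are among them although *Baat* was the higher in only 8 of 16 mice, because *Cyp7b1* lay far below it in those mice. Only *Abcc2* and *Abcb4* had ranges that did not overlap.

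Spread between mice also differed widely between the genes. The coefficient of variation (SD divided by the mean) over the 16 mice was 75.5% for *Cyp7a1*, 52.1% for *Cyp7b1* and 38.3% for *Cyp8b1*, against 7.30% for *Slc27a5* and 8.51% for *Abcb11*. Within genotypes, the SD of log2(FPKM + 1) of *Cyp7a1* (1.03) was higher than that of 99.5% of the 10038 genes whose mean FPKM was 1 or more, for which the median SD was 0.18. For *Cyp7b1* and *Cyp8b1* these shares were 99.1% and 96.6%, and for *Slc27a5* 6.74%. By this measure these 3 hydroxylases were among the most variable genes of these livers, and the ligase *Slc27a5* was among the steadiest. For *Cyp27a1*, also a hydroxylase, the share was 23.8%. Adding 1 before the logarithm lowers the SD most in genes of low FPKM, so that abundant genes rank higher. *Epcam*, with a mean of 1.10 FPKM, had a coefficient of variation of 67.1%, above that of *Cyp8b1*, but a share of 94.1%. How the 3 hydroxylases rank on a scale without this effect was not tested.

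**Figure D1:**
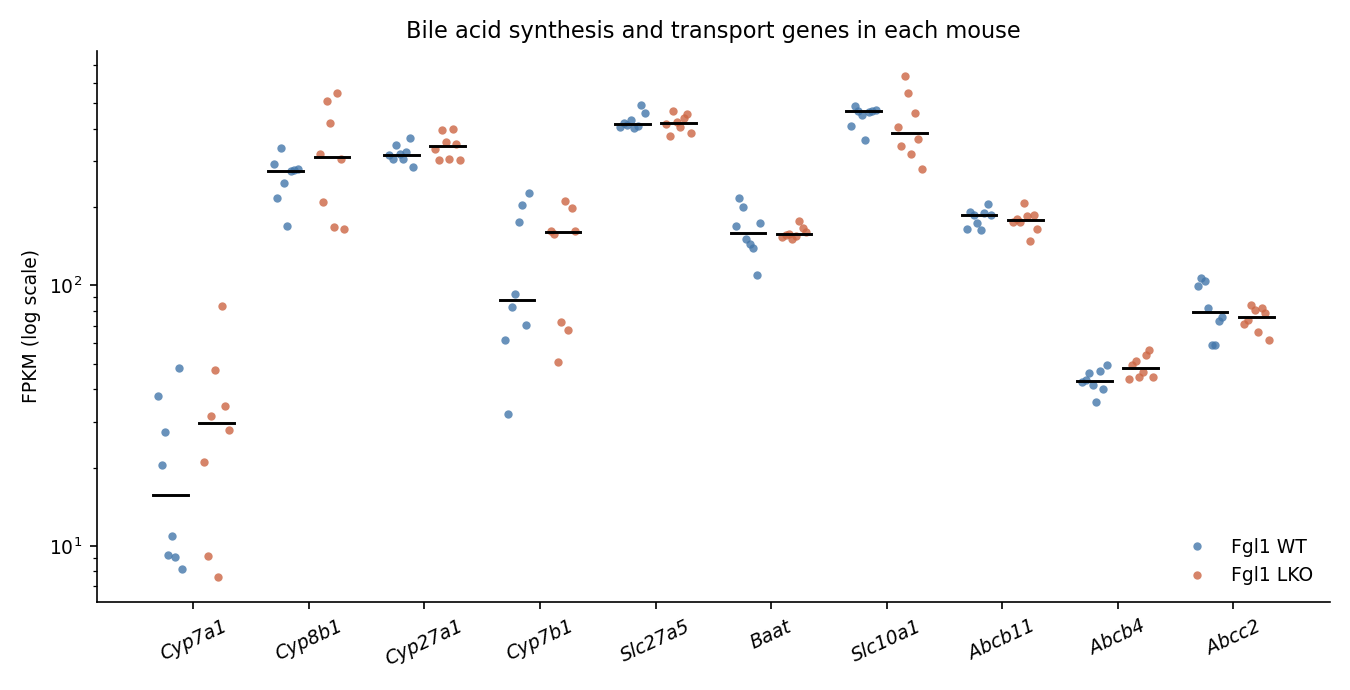
FPKM of each of the 10 genes (log axis) in every mouse, with 1 point per mouse, *Fgl1* WT in blue and *Fgl1* LKO in orange, and black lines at the group medians. The groups overlap for every gene, and *Cyp7a1* spreads most, from 7.6 to 83.5 FPKM.

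Genotypes were compared on the log2(FPKM + 1) scale with limma and Benjamini-Hochberg adjustment over all genes, two-sided, over the 12770 genes that passed a filter on low values (mean FPKM 0.1 or more), among them all 10. None of the 10 had an adjusted p-value under 0.05 (0 of 10), and neither did any other gene (0%). The targeted gene itself missed this threshold, with a log2 fold change of -3.11 for *Fgl1* (limma adjusted p = 0.0725). *Fgl1* passed with a term for the runs, without mice 36 to 38, when blocked by replicate number and with rescaling to an equal sum. Its limma adjusted p was then 0.025, 0.0453, 0.0197 and 0.0372. At an unadjusted p under 0.05, limma called 1 of the 10, *Abcb4*, against 7.01% of all genes tested. An exact permutation test over the splits of 8 against 8 mice also called 1 of 10 at an unadjusted p under 0.05 (7.06% of all genes). Its p-values cannot fall below 0.000155, which for a single gene is too high to pass adjustment over all genes, so that a count of 0 after adjustment (0%) says nothing here. No member had groups that did not overlap, which 0.0157% of all genes had. With 10 genes, 1 call does not set them apart from all genes. The median log2 fold change was 0.04 over the 10 genes and 0.01 over all genes tested, with 6 of the 10 above 0 and 4 below, where *Baat*, at 0.0005, turned below 0 with median-ratio scaling and quantile normalization. In bulk RNA, fewer cells of a type and less RNA per cell cannot be told apart.

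**Figure D2:**
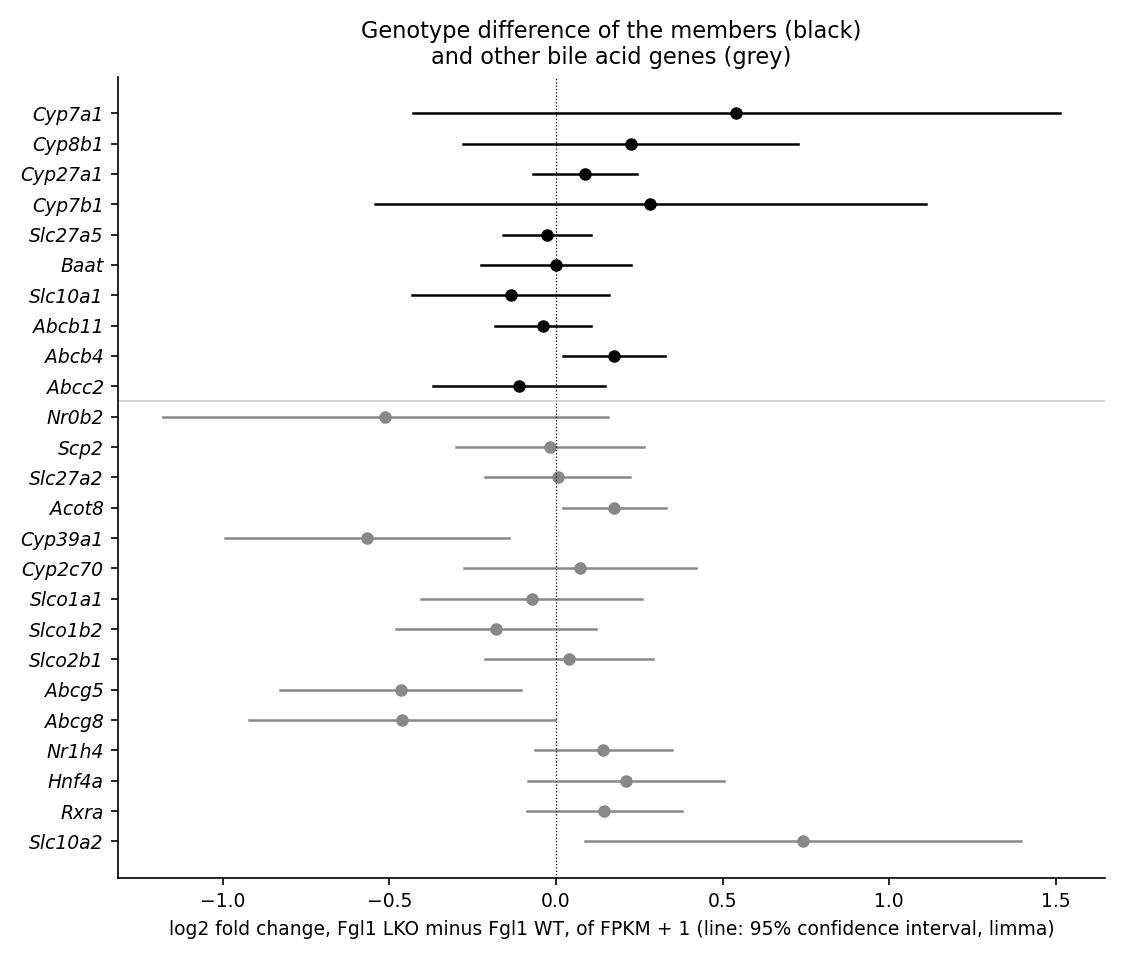
Log2 fold change, *Fgl1* LKO minus *Fgl1* WT, of FPKM + 1 (points) with 95% confidence intervals from limma (lines), for the 10 genes in black and other named bile acid genes in grey. Of the 10, only the interval of *Abcb4*, from 0.02 to 0.33, lies above 0, and those of *Cyp7a1* and *Cyp7b1* are the widest of the 10.

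*Cyp7a1* (NCBI Gene 13122), the rate-limiting enzyme of the classical route, is at chr4:6265612-6275633 on the minus strand (GRCm39, positions of all genes from GENCODE). It had 8.2 to 48.4 FPKM (median 15.6) in *Fgl1* WT mice and 7.6 to 83.5 FPKM (median 29.8) in *Fgl1* LKO mice. The groups overlapped over the whole *Fgl1* WT range, although 6 of 8 *Fgl1* LKO mice lay above the *Fgl1* WT median. The means were 21.4 ± 15.2 FPKM (SD, n = 8) and 32.8 ± 24.3 FPKM (SD, n = 8), which gave a log2 fold change of 0.54 (SE 0.46, limma adjusted p = 0.788, exact permutation p = 0.31). Its 95% interval, from -0.43 to 1.51, includes a doubling, so that these 16 mice limit the difference only loosely. Fitted with a term for the runs, it was 1.08. By runs, the log2 difference was 0.92 (1 *Fgl1* WT mouse against 3 *Fgl1* LKO mice), 1.58 (2 against 3) and 0.59 (2 against 2), and without *Fgl1* LKO replicate 6, the highest mouse, the fold change was 0.30. A gap lay between 10.9 and 20.4 FPKM, with 6 mice below it, 4 *Fgl1* WT and 2 *Fgl1* LKO, and 10 mice above.

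*Cyp8b1* (NCBI Gene 13124) encodes the sterol hydroxylase needed to make cholic acid and is a gene of a single exon at chr9:121743422-121745371 (minus strand). Its FPKM was 169 to 337 (median 276) in *Fgl1* WT mice and 165 to 546 (median 312) in *Fgl1* LKO mice. The 3 highest mice, *Fgl1* LKO replicates 6, 3 and 4, lay above every *Fgl1* WT mouse, while replicates 5 and 8 lay below all of them. The SD was 51.0 FPKM in *Fgl1* WT and 149 FPKM in *Fgl1* LKO mice (n = 8 each), and whether these spreads differ was not tested. Between genotypes, *Cyp8b1* had a log2 fold change of 0.22 (SE 0.24, limma adjusted p = 0.826, exact permutation p = 0.405). In the 3 runs that hold both genotypes it was 0.39, 0.65 and -0.31. Single mice moved the value of 0.22, to 0.10 without *Fgl1* LKO replicate 6, 0.12 without replicate 3, 0.34 without replicate 5, 0.35 without replicate 8 and 0.14 without *Fgl1* WT replicate 5.

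The promoter of *Cyp8b1* is shown because this gene varied together with other members, as described further on. RefSeq promoter windows (GRCm38.p6 table, 250 bases before to 50 after the start) were given for 6 of the 10 genes, *Cyp8b1*, *Cyp27a1*, *Slc10a1*, *Abcb11*, *Abcb4* and *Abcc2*, and the window used for each matched GRCm39 at 1 place. None is given for *Cyp7a1*, *Cyp7b1*, *Baat* and *Slc27a5*. The motifs given here were searched on both strands: TATAAA (the TATA box, in 13.6% of 32817 windows of all genes), CAAGGNC (NR5A2 core, 17.8%), CAAAGTCCA (HNF4A, 0.475%) and GGNCANTGA (part of the inverted repeat bound by NR1H4, 4.78%). The *Cyp8b1* window, chr9:121745372-121745621 on the minus strand up to the start site, held the first 3 of these motifs, in capitals, and GENCODE places no exon there. CAAAGTCCA, from base -67 to -59, and CAAGGNC, from -60 to -54, overlap and form 1 run of capitals, and TATAAA follows from -31 to -26. The *Slc10a1* stretch, chr12:81014854-81014938 on the minus strand, lies just before its start site, with 2 bases in an exon of another *Slc10a1* transcript, and held none of these motifs. Each of the first 3 motifs was found in 1 of the 6 windows, that of *Cyp8b1*. The window of *Cyp27a1*, which also varied together with other members, held none of these motifs and is not printed. A match is a description of the letters and was not tested as a binding site.
Cyp8b1: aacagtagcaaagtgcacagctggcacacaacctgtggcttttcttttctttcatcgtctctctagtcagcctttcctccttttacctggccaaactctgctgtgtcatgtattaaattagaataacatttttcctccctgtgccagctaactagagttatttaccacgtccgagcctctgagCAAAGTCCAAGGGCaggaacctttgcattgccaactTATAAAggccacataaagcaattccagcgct
Slc10a1: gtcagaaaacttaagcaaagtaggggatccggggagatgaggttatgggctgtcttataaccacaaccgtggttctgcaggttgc

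The alternative route starts with *Cyp27a1* (NCBI Gene 104086, chromosome 1 from 74752314 to 74777056, plus strand), a mitochondrial sterol hydroxylase. It had 286 to 369 FPKM (median 318) in *Fgl1* WT mice and 304 to 398 FPKM (median 342) in *Fgl1* LKO mice. The groups overlapped, with 2 *Fgl1* LKO mice, replicates 3 and 6, above all others. Its log2 fold change was 0.09 (SE 0.07, limma adjusted p = 0.787, exact permutation p = 0.223), with a 95% interval from -0.07 to 0.24. It was 0.06 without *Fgl1* LKO replicate 3 and also without replicate 6.

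*Cyp7b1* (NCBI Gene 13123, chromosome 3 from 18117411 to 18297740, minus strand) hydroxylates the oxysterols of this route. It had 32.2 to 227 FPKM (median 87.8) in *Fgl1* WT mice and 50.8 to 210 FPKM (median 160) in *Fgl1* LKO mice. The groups overlapped almost fully. The mice lay on either side of a gap between 92.6 and 158 FPKM, with 5 *Fgl1* WT and 3 *Fgl1* LKO mice below it and 3 and 5 above. The log2 fold change of 0.28 (SE 0.39, limma adjusted p = 0.876, exact permutation p = 0.514) did not keep its sign. It was -0.14 when fitted with a term for the runs and -0.22 without mice 36 to 38, all of which lay below the gap. Leaving out single mice, with no term for the runs, moved it between 0.06, without *Fgl1* WT replicate 2, and 0.46, without *Fgl1* LKO replicate 3.

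Conjugation needs *Slc27a5*, which activates bile acids as CoA esters, and *Baat*, which transfers taurine or glycine to them. *Slc27a5* (NCBI Gene 26459, chromosome 7 from 12722273 to 12732137, minus strand) had 402 to 492 FPKM (median 416) in *Fgl1* WT mice and 374 to 468 FPKM (median 421) in *Fgl1* LKO mice. The ranges overlapped, and the log2 fold change was -0.03, with a 95% interval from -0.16 to 0.11 (limma adjusted p = 0.935, exact permutation p = 0.629). *Baat* (NCBI Gene 12012, chromosome 4 from 49489289 to 49506563, minus strand) had 109 to 216 FPKM (median 159) in *Fgl1* WT mice and 151 to 176 FPKM (median 157) in *Fgl1* LKO mice. All *Fgl1* LKO mice thus lay inside the *Fgl1* WT range, with an SD of 8.21 FPKM against 34.5 FPKM (n = 8 each). For *Baat* the log2 fold change was 0.0005 (SE 0.11, limma adjusted p = 0.998, exact permutation p = 0.997), and 0.17 both when fitted with a term for the runs and without mice 36 to 38.

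Uptake from portal blood is carried largely by the sodium-dependent transporter that *Slc10a1* encodes (NCBI Gene 20493, chromosome 12 from 80996372 to 81015479, minus strand). *Slc10a1* had 362 to 488 FPKM (median 465) in *Fgl1* WT mice and 279 to 638 FPKM (median 386) in *Fgl1* LKO mice. The *Fgl1* WT mice lay close together apart from replicates 1 and 5, and the *Fgl1* LKO mice reached both above and below them. The SD was 41.3 FPKM in *Fgl1* WT and 122 FPKM in *Fgl1* LKO mice (n = 8 each), a difference in spread that was not tested. Its log2 fold change was -0.14 (SE 0.14, limma adjusted p = 0.823, exact permutation p = 0.386), which became -0.06 without *Fgl1* LKO replicate 8, -0.09 without replicate 5 and -0.23 without replicate 3. In the 3 runs that hold both genotypes it was -0.01, 0.07 and -0.55.

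Export into bile runs through 3 pumps of the canalicular membrane. *Abcb11* (NCBI Gene 27413, chromosome 2 from 69068544 to 69173315, minus strand), the bile salt export pump, had 163 to 205 FPKM (median 186) in *Fgl1* WT mice and 148 to 207 FPKM (median 178) in *Fgl1* LKO mice. The groups overlapped, and the log2 fold change of -0.04 had a 95% interval from -0.18 to 0.10 (limma adjusted p = 0.903, exact permutation p = 0.543). Leaving out single mice moved it between -0.07, without *Fgl1* LKO replicate 4, and nearly 0, without *Fgl1* LKO replicate 6.

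*Abcb4* (NCBI Gene 18670, chromosome 5 from 8943604 to 9011999, plus strand) moves phosphatidylcholine into bile, where it shields the ducts from bile acids. It had 35.7 to 49.5 FPKM (median 42.9) in *Fgl1* WT mice and 43.8 to 56.8 FPKM (median 48.1) in *Fgl1* LKO mice. The ranges overlapped, and all 8 *Fgl1* LKO mice lay above the *Fgl1* WT median. A log2 fold change of 0.18 (SE 0.07) had an unadjusted p of 0.0268 from limma and an exact permutation p of 0.0261, and failed adjustment over all genes (limma adjusted p = 0.696). It was above 0 in each of the 3 runs that hold both genotypes, at 0.21, 0.23 and 0.17. This also held for *Cyp7a1*, *Cyp27a1* and *Baat*, while for the other 6 genes the sign differed between these runs. The unadjusted p of *Abcb4* was no longer under 0.05 with median-ratio scaling, with quantile normalization, or without *Fgl1* WT replicate 5, the lowest mouse, or *Fgl1* LKO replicate 6 or 7, the highest 2.

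*Abcc2* (NCBI Gene 12780, chromosome 19 from 43770631 to 43829179, plus strand) exports bilirubin conjugates and divalent bile salts. It had 58.9 to 107 FPKM (median 78.9) in *Fgl1* WT mice and 61.9 to 83.9 FPKM (median 76.0) in *Fgl1* LKO mice. The highest mice were the 3 *Fgl1* WT mice numbered 36 to 38, with 99.1 to 107 FPKM, and no other mouse exceeded 83.9 FPKM. Its log2 fold change of -0.11 (SE 0.12, limma adjusted p = 0.83, exact permutation p = 0.407) turned to 0.09 when fitted with a term for the runs and to 0.10 without these 3 mice. It was -0.05 without *Fgl1* WT replicate 2 and -0.17 without *Fgl1* WT replicate 5 or 6, with no term for the runs. Mice 36 to 38 had *Saa1*, an acute-phase gene, at 63.8 to 71.4 FPKM, while it ranged from 68.4 to 16269 FPKM in the others. They also held the 2 highest *Baat* values, 216 and 201 FPKM. The part of the run and of the acute-phase level in the *Abcc2* values was not tested.

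The windows of *Abcb11* and *Abcc2* each held 1 match to GGNCANTGA, part of the repeat that NR1H4 binds, which 4.78% of all windows held. These genes are shown because both are known targets of that receptor. In both, the match lies in an untranslated part of an exon by GENCODE, whose start sites are 355 and 116 bases before those of RefSeq. The stretches lie at chr2:69173004-69173032 on the minus strand and chr19:43770712-43770740 on the plus strand, with the match in capitals.
Abcb11: ctggactttaGGCCATTGAcctataagca
Abcc2: gcctttaattGGGCAGTGAggatgggaaa

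**Figure D3:**
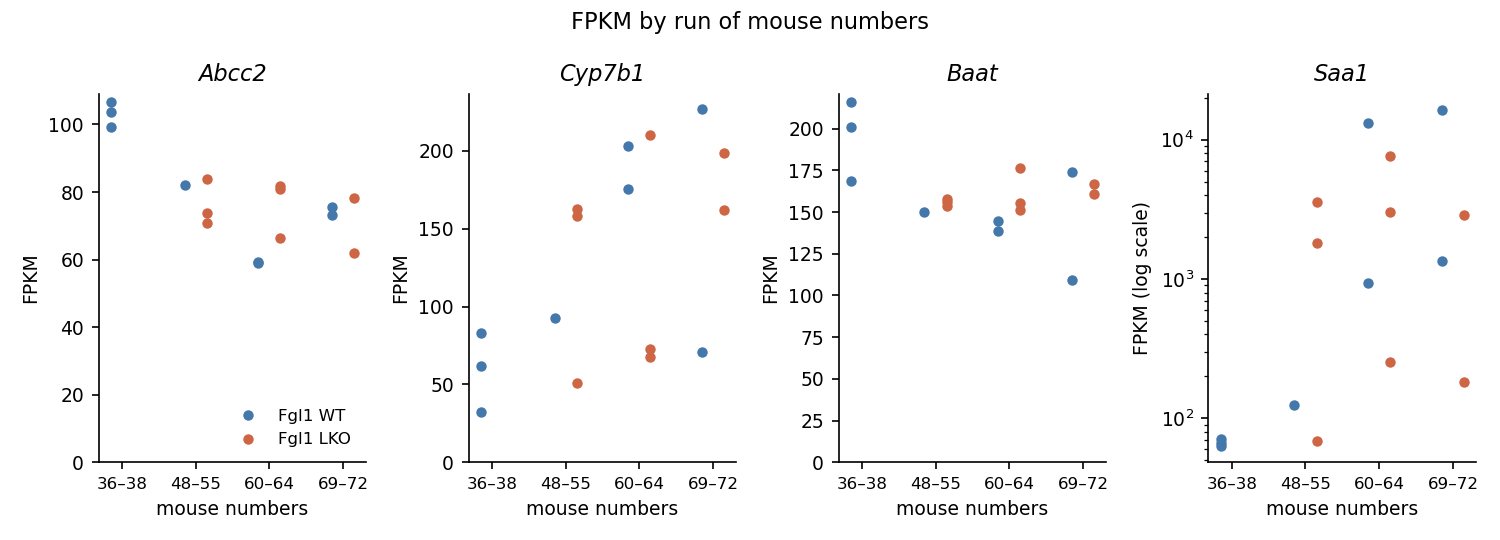
FPKM of *Abcc2*, *Cyp7b1*, *Baat* and *Saa1* (log axis for *Saa1*) in each mouse by run of mouse numbers, with *Fgl1* WT mice in blue and *Fgl1* LKO mice in orange. The 3 mice numbered 36 to 38, all *Fgl1* WT, are highest in *Abcc2*, at 99.1 to 107 FPKM, and low in *Saa1*.

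Some pairs of the 10 genes varied together across the mice. How often pairs of other genes do so was not computed, so the counts do not set these genes apart. Over the 16 mice, 45 pairs were correlated on the log2(FPKM + 1) scale, with p-values from 100000 permutations and Benjamini-Hochberg adjustment over the 45 pairs. By Pearson's r, 4 pairs passed an adjusted p of 0.05, 3 positive and 1 negative, and 1 of them also passed by Spearman's rho.

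The strongest pair was *Cyp8b1* and *Cyp27a1*, with r = 0.82 (permutation p = 0.00013, adjusted 0.00585) and rho = 0.78 (permutation p = 0.00053, adjusted 0.0238). It was 0.96 within *Fgl1* LKO mice (exact permutation p = 0.000868) and 0.43 within *Fgl1* WT mice (exact permutation p = 0.281), and the difference between genotypes was not tested. With the means of the runs removed, r was 0.83. *Cyp8b1* and *Slc10a1* had r = 0.76 (permutation p = 0.0007, adjusted 0.00866) and rho = 0.63 (permutation p = 0.0105, adjusted 0.0672), with 0.90 in *Fgl1* LKO mice, 0.57 in *Fgl1* WT mice and 0.76 with run means removed. *Fgl1* LKO replicates 3 and 4 were among the 3 highest mice of both genes.

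*Cyp7a1* and *Cyp27a1* had r = 0.76 (permutation p = 0.00077, adjusted 0.00866) and rho = 0.69 (permutation p = 0.00392, adjusted 0.0588), with 0.79 in *Fgl1* LKO mice, 0.66 in *Fgl1* WT mice and 0.86 with run means removed. *Cyp7a1* and *Cyp8b1*, 2 of the enzymes of the classical route, fell short of the threshold. They had r = 0.65 (permutation p = 0.00711, adjusted 0.054) and rho = 0.61 (permutation p = 0.0148, adjusted 0.0786). Equally close were *Abcc2* and *Baat*, with r = 0.64 (permutation p = 0.0072, adjusted 0.054) and rho = 0.65 (permutation p = 0.00733, adjusted 0.0597). Without *Fgl1* LKO replicate 8 both passed, with r = 0.75 (adjusted permutation p = 0.0145) and 0.68 (adjusted permutation p = 0.0337). Without the 2 mice farthest from the median of *Cyp7a1* or *Abcc2*, r was 0.46 and 0.35, and with run means removed 0.74 and 0.31.

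The negative pair was *Cyp7b1* and *Abcc2*, with r = -0.76 (permutation p = 0.00064, adjusted 0.00866) and rho = -0.72 (permutation p = 0.00232, adjusted 0.0522). The sign was the same in *Fgl1* WT (-0.79) and *Fgl1* LKO mice (-0.74). It was -0.62 with run means removed, -0.64 without the mice numbered 36 to 38 and -0.66 with median-ratio scaling, and in these 3 cases the adjusted permutation p was 0.102, 0.0767 and 0.0597. On either side of the gap in *Cyp7b1*, r was -0.45 below it (8 mice, exact permutation p = 0.278) and 0.16 above it (8 mice, exact permutation p = 0.686), where each side holds a narrower range of *Cyp7b1* and so a lower r can be had from the split itself. With the same limit, r of *Cyp7a1* and *Cyp27a1* was 0.27 below the gap in *Cyp7a1* (6 mice, permutation p = 0.633). Above that gap it was 0.67 (10 mice, permutation p = 0.0337). *Cyp7b1* also ran against *Slc10a1* (r = -0.62, rho = -0.49) and *Cyp7a1* (r = -0.58, rho = -0.65), both short of the threshold (permutation p of r = 0.0103 and 0.0197, adjusted 0.0634 and 0.0983, and of rho = 0.0562 and 0.00796). With *Slc10a1*, r was -0.88 within *Fgl1* LKO mice (exact permutation p = 0.00437, adjusted 0.0448) and -0.29 within *Fgl1* WT mice (exact permutation p = 0.498). *Slc10a1* and *Slc27a5* had r = 0.62 (adjusted permutation p = 0.0634) and rho = 0.66 (adjusted permutation p = 0.0597), and passed with run means removed (r = 0.85, adjusted permutation p = 0.00765), while r was 0.45 with median-ratio scaling.

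None of the 4 calls was kept among 14 mice. Without the 2 mice farthest from the median of the first-named gene, r was 0.65 for *Cyp8b1* and *Cyp27a1*, 0.74 for *Cyp8b1* and *Slc10a1*, 0.66 for *Cyp7a1* and *Cyp27a1* and -0.68 for *Cyp7b1* and *Abcc2*. Unadjusted permutation p-values were then 0.0112, 0.00236, 0.0102 and 0.00719, and no pair passed after adjustment, with values of 0.106 to 0.126. For *Cyp8b1* and *Slc10a1* r hardly moved, and what part the lower number of mice had in the lost calls was not tested. The 2 mice left out were *Fgl1* LKO replicates 3 and 6 for the *Cyp8b1* pairs. *Abcb11* passed with none of the other 9 genes, with r between -0.24 and 0.32. Its highest rho was 0.54, with *Slc10a1* (permutation p = 0.0348, adjusted 0.13), where r was 0.82 within *Fgl1* WT mice (exact permutation p = 0.00322, adjusted 0.145) and 0.16 within *Fgl1* LKO mice (exact permutation p = 0.72). With *Baat*, r was -0.75 within *Fgl1* LKO mice (exact permutation p = 0.0363, adjusted 0.108) and -0.18 within *Fgl1* WT mice (exact permutation p = 0.676). Within *Fgl1* LKO mice alone 7 pairs passed. Beside the 3 given above these were *Abcc2* with *Cyp8b1* (r = 0.90), *Cyp27a1* (0.86) and *Slc10a1* (0.86), and *Cyp27a1* with *Slc27a5* (0.86), each with an adjusted exact permutation p of 0.0448. In *Fgl1* WT mice, r of these 4 pairs was 0.41, 0.05, 0.40 and 0.33, and over the 16 mice 0.42, 0.22, 0.49 and 0.56, and none passed in either. Whether the genotypes differ in this was not tested.

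**Figure D4:**
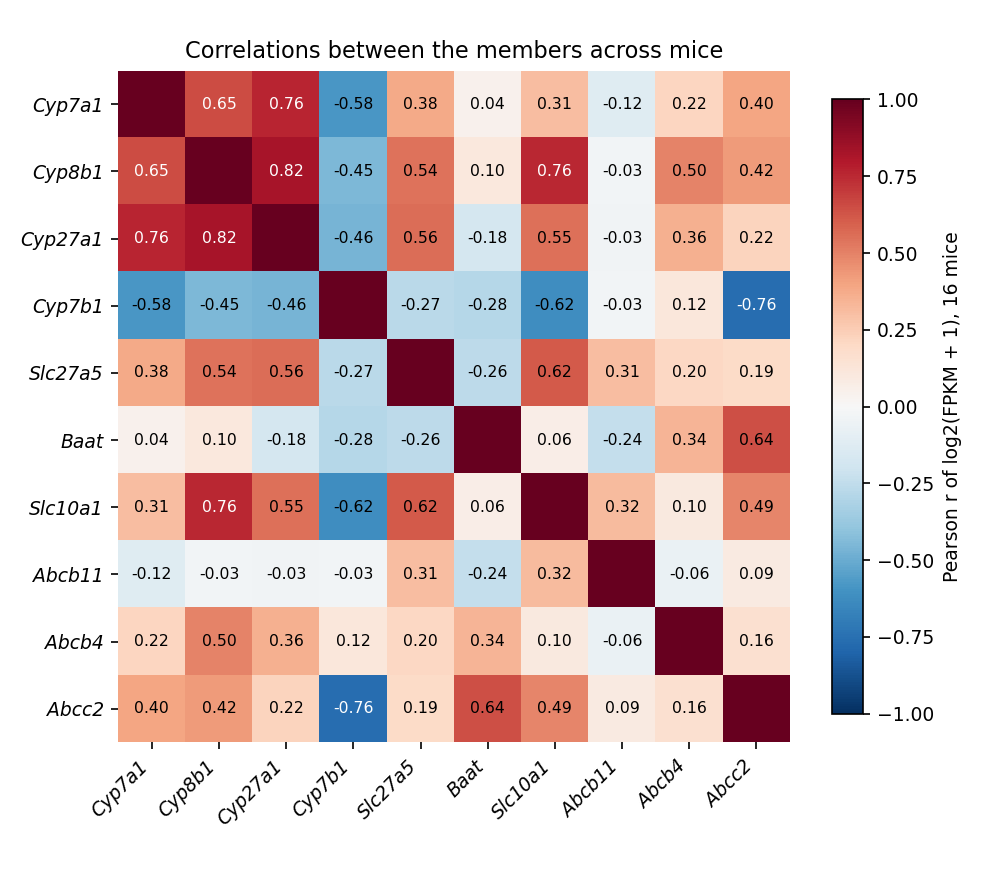
Pearson r of log2(FPKM + 1) over the 16 mice for each pair of the 10 genes, from blue (-1) to red (1), with the diagonal being each gene with itself. *Cyp7a1*, *Cyp8b1* and *Cyp27a1* are positively related (r of 0.65 to 0.82), *Cyp7b1* is negative with 7 of the other 9 genes to r = -0.27 or lower, and *Abcb11* is near 0 with most.

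**Figure D5:**
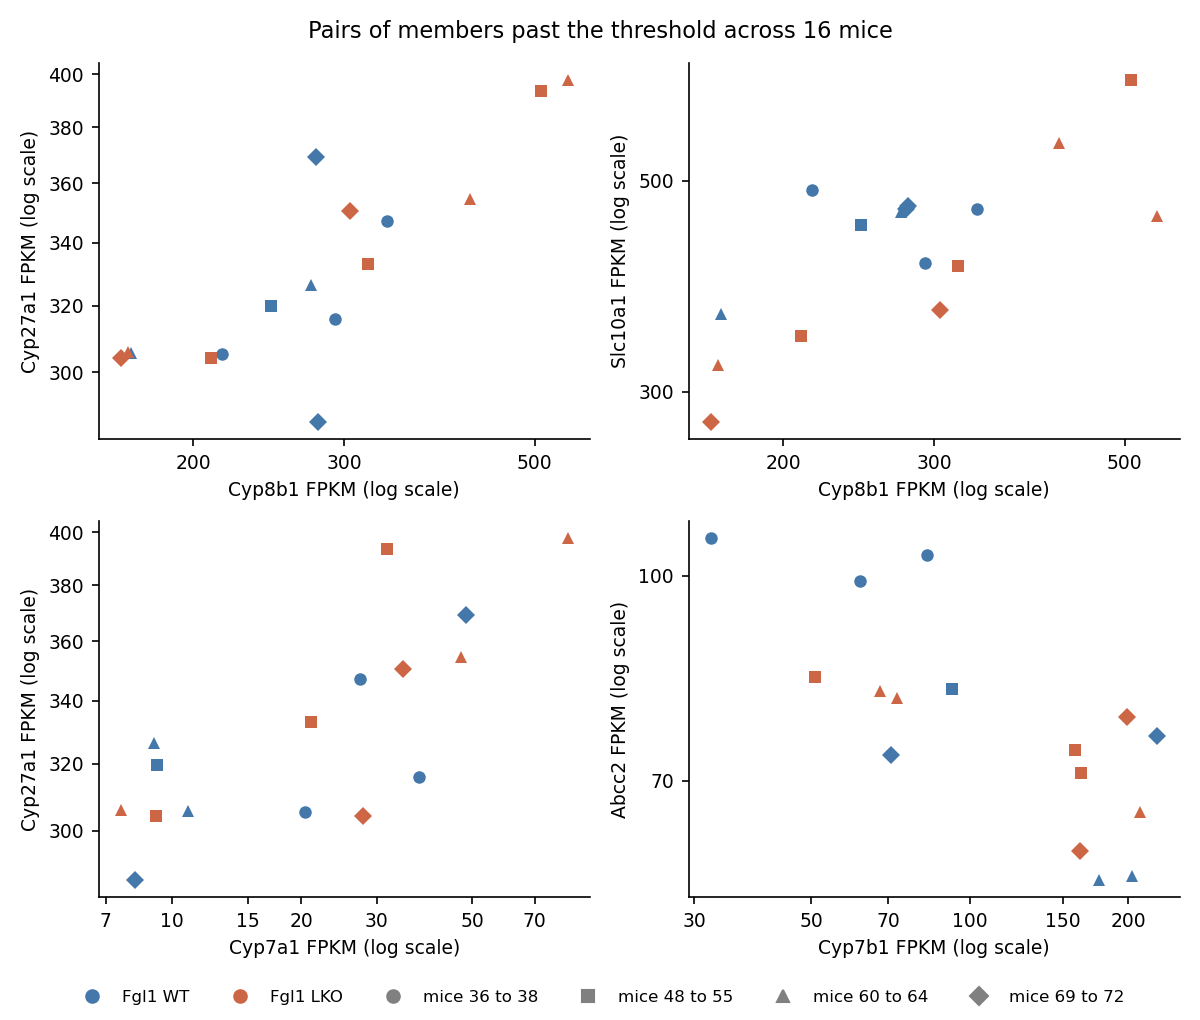
FPKM of the 4 pairs past the threshold (log axes), with 1 point per mouse, blue for *Fgl1* WT and orange for *Fgl1* LKO, and shapes for the runs of mouse numbers. *Fgl1* LKO replicates 3 and 6 lie at the upper right of *Cyp8b1* and *Cyp27a1*, and the 3 mice numbered 36 to 38 lie at the top of *Abcc2*.

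Each gene was also related to *Saa1*, to the clock output gene *Dbp* and to *Nr0b2*, 30 relations adjusted together, of which 2 passed. The share of all genes related to *Saa1*, *Dbp* or *Nr0b2* was not computed, so this count does not set the members apart. *Saa1* ranged from 63.8 to 16269 FPKM in *Fgl1* WT and from 68.4 to 7669 FPKM in *Fgl1* LKO mice, and *Dbp* from 0.37 to 7.44 and from 0.37 to 4.84 FPKM. *Abcc2* was lower where *Saa1* was higher (r = -0.77, permutation p = 0.00059, adjusted 0.0177; rho = -0.78, permutation p = 0.00064, adjusted 0.0192). This was -0.81 in *Fgl1* WT mice, -0.68 in *Fgl1* LKO mice, -0.52 with run means removed and -0.60 without the mice numbered 36 to 38. None of these 4 values passed (adjusted permutation p = 0.410 and 0.397, exact, within genotypes, and 0.385 and 0.401). Nor did r = -0.67 with median-ratio scaling (adjusted permutation p = 0.0676), nor the relation without the 2 mice farthest from the median of *Saa1* (r = -0.68, adjusted permutation p = 0.183). *Slc27a5* was higher where *Dbp* was higher (r = 0.69, permutation p = 0.00316, adjusted 0.0474; rho = 0.52, permutation p = 0.0396, adjusted 0.329). It was 0.65 in *Fgl1* WT mice, 0.74 in *Fgl1* LKO mice and 0.60 both without the 2 mice farthest from the median of *Dbp* and with run means removed, and passed in none of these 4 cases (adjusted permutation p = 0.716 and 0.397, exact, within genotypes, and 0.366 and 0.385). Nor did it pass at 0.74 with median-ratio scaling (adjusted permutation p = 0.0676) or 0.68 without mice 36 to 38 (adjusted permutation p = 0.312). *Nr0b2* ranged from 23.8 to 63.4 FPKM in *Fgl1* WT and from 9.24 to 60.6 FPKM in *Fgl1* LKO mice, and related to none of the 10 genes past the threshold. Its highest r, 0.50 with *Slc10a1*, had an adjusted permutation p of 0.252. Without *Fgl1* LKO replicate 8 this r was 0.25.

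For each member, the other gene with the most similar pattern was sought among 10028 genes whose mean FPKM was 1 or more, by Pearson r over the 16 mice after the genotype means were subtracted. As the highest of so many values, each r is a description. *Cyp8b1* was followed most closely by *Hjv* (r = 0.97), then *Shmt2* and *Golt1a* (both 0.91). *Hjv* spanned 32.0 to 65.3 FPKM, less widely than *Cyp8b1*. *Cyp7a1* was followed by *Lzts2*, *Gpld1* and *Abhd4* (r = 0.87, 0.87 and 0.86). The gene nearest to *Cyp7b1* was *Mup2* (r = 0.94), one of a family of near-identical genes whose reads the counting could have shared. For *Slc10a1* it was *Shmt1* (0.93), for *Abcc2* *Bche* (0.92), for *Cyp27a1* *Hdac10* (0.92), for *Baat* *Msl2* (0.90), for *Abcb4* *Fbxo21* (0.88), for *Slc27a5* *Lipe* (0.86) and for *Abcb11* *Usp14* (0.83).

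Other genes of bile acid metabolism were read from lists in the same limma fit. Of 12 further synthesis enzymes, 11 passed the filter on low FPKM and 0 had an adjusted p under 0.05. At an unadjusted p, 1 was higher and 1 was lower in *Fgl1* LKO mice, where 4.64% and 2.36% of all genes were. *Acot8*, a peroxisomal thioesterase, had 9.92 to 13.7 FPKM in *Fgl1* WT and 11.2 to 14.7 FPKM in *Fgl1* LKO mice (log2 fold change 0.18, adjusted p = 0.696 from limma). *Cyp39a1*, an oxysterol hydroxylase, had 8.26 to 23.5 and 4.66 to 11.4 FPKM (log2 fold change -0.57, adjusted p = 0.696 from limma). Both overlapped between the groups, and exact permutation p was 0.028 and 0.0216. For *Cyp39a1* the log2 fold change was -0.29 when fitted with a term for the runs and -0.36 without mice 36 to 38, and for *Acot8* it was 0.12 and 0.15. The most abundant of this list were *Scp2*, a sterol carrier, *Cyp2c70*, which makes muricholic acids in mice, and *Slc27a2*, a very long chain acyl-CoA ligase, with means of 1551, 433 and 394 FPKM and log2 fold changes of -0.02, 0.07 and 0.01. None of these kept its sign under all alternatives. *Scp2* ranged from -0.08 to 0.10, *Cyp2c70* from 0.01 to 0.16 and *Slc27a2* from -0.03 to 0.06 when single mice were left out, and *Cyp2c70* was -0.13 when fitted with a term for the runs.

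Of 12 other transporters, 11 were analysed and passed the filter, and 0 had an adjusted p under 0.05. *Abcg5* and *Abcg8*, which together pump cholesterol and plant sterols into bile, were the 2 with an unadjusted p under 0.05 from limma, which 2.36% of all genes had with a lower value in *Fgl1* LKO mice. *Abcg5* had 18.8 to 39.1 FPKM (median 29.3) in *Fgl1* WT and 10.6 to 26.6 FPKM (median 21.7) in *Fgl1* LKO mice. *Abcg8* had 14.97 to 30.9 FPKM (median 26.5) and 6.36 to 24.8 FPKM (median 18.1). In both genes, none of the 8 *Fgl1* LKO mice reached the *Fgl1* WT median, and the ranges overlapped. Their log2 fold changes were -0.47 and -0.46 (unadjusted p = 0.0144 and 0.0493 and adjusted p = 0.696 for both from limma, exact permutation p = 0.023 and 0.0626). Both were lowest in *Fgl1* LKO replicate 8, and without this mouse the log2 fold changes were -0.34 and -0.28. The most abundant of the list, the organic anion transporter genes *Slco1b2*, *Slco1a1* and *Slco2b1*, had log2 fold changes of -0.18, -0.07 and 0.04. None of these kept its sign: *Slco1b2* had 0.02 and *Slco1a1* 0.05 without mice 36 to 38, and *Slco2b1* had -0.05 when fitted with a term for the runs.

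Among 17 regulators, 16 passed the filter and 0 had an adjusted or unadjusted p under 0.05 from limma. *Nr1h4* itself had 50.0 to 84.1 FPKM in *Fgl1* WT and 54.0 to 77.5 FPKM in *Fgl1* LKO mice (log2 fold change 0.14, adjusted p = 0.751). *Hnf4a* and *Rxra*, the other 2 most abundant regulators, had log2 fold changes of 0.21 and 0.15, and *Nr0b2* had -0.51 (SE 0.32, limma adjusted p = 0.722). Without *Fgl1* LKO replicate 8, these were 0.12, 0.09 and -0.31. When fitted with a term for the runs, *Nr0b2* had -0.94.

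Of 3 bile acid genes of the gut, *Slc10a2*, the ileal uptake transporter that bile duct cells also carry, was the 1 analysed here. It had 3.34 to 9.16 FPKM (median 4.33) in *Fgl1* WT and 3.57 to 23.7 FPKM (median 10.3) in *Fgl1* LKO mice. *Fgl1* LKO replicates 8, 7, 5 and 2 lay above every *Fgl1* WT mouse, and the other 4 lay within the *Fgl1* WT range. It had a log2 fold change of 0.74 (SE 0.31), with an unadjusted p of 0.0286 and an adjusted p of 0.696 from limma and an exact permutation p of 0.0496. Without *Fgl1* LKO replicate 8 the log2 fold change was 0.56. The summed FPKM of 7 bile duct markers was 54.6 ± 11.2 (SD, n = 8) in *Fgl1* WT and 90.5 ± 74.3 (SD, n = 8) in *Fgl1* LKO mice, from 36.9 to 92.9 in 15 mice and 269 in *Fgl1* LKO replicate 8. Most of it was *Spp1*, whose mean was 58.1 FPKM, with 40.3 FPKM in *Fgl1* WT and 75.9 FPKM in *Fgl1* LKO mice. *Slc4a2* had means of 10.2 and 9.46 FPKM, so that the difference of the sums describes *Spp1* rather than the list. In *Fgl1* LKO replicate 8, *Slc4a2* was the lowest of all mice (7.77 FPKM) and *Epcam* the highest (3.35 FPKM). No marker of this list was at 0 in all mice, while *Cftr* did not exceed 0.09 FPKM. Of the 6 markers that passed the filter, 5 had a log2 fold change above 0 (7126 of 12770 over all genes) and none had an unadjusted p under 0.05 from limma. Their part in the *Slc10a2* values was not tested.

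Markers of other cells and of liver zones were read beside these genes. The summed FPKM of 6 pericentral hepatocyte markers was 4053 ± 649 (SD, n = 8) in *Fgl1* WT and 3675 ± 839 (SD, n = 8) in *Fgl1* LKO mice, and that of 6 periportal markers 2150 ± 187 and 2005 ± 115. *Cyp2e1* and *Cyp2f2* were their most abundant genes. None of these markers had an adjusted p under 0.05 from limma (0 of 12). All 6 periportal markers had a log2 fold change below 0 (5644 of 12770 over all genes), and 2 of them, *Hal* and *Hsd17b13*, had an unadjusted p under 0.05, lower in *Fgl1* LKO mice (log2 fold changes -0.31 and -0.21, exact permutation p = 0.0678 and 0.0458), as did 2.36% of all genes. Of 5 Kupffer cell markers, all had a log2 fold change above 0, and *Vsig4* and *Adgre1* had an unadjusted p under 0.05 from limma (log2 fold changes 0.37 and 0.38, adjusted p = 0.696 for both), with an exact permutation p of 0.0514 and 0.0455. Among all genes tested, 7126 of 12770 were above 0, and 4.64% were above 0 with such an unadjusted p. The log2 fold changes of *Vsig4* and *Adgre1* were 0.21 and 0.22 when fitted with a term for the runs and 0.20 and 0.27 without mice 36 to 38. The summed FPKM of the 5 markers was 81.8 ± 21.1 in *Fgl1* WT and 97.0 ± 25.4 in *Fgl1* LKO mice (SD, n = 8), with *Cd5l* the most abundant. No marker of the lists for sinusoidal endothelial cells, stellate cells, red blood cells and neutrophils had an unadjusted p under 0.05 from limma.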

How the data were processed

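Per the labels and the study's methods, polyA RNA of each liver was sequenced from stranded libraries, and reads were aligned to mm39 with HISAT and to reference genes with Bowtie2. No versions, counting step or annotation release are given in the sources used here. The authors deposited FPKM values with 2 decimals and a decimal comma, which was read as a decimal point. Samples were grouped by the genotype in the labels, and columns were matched to samples by library name. Read totals are unknown, so counting error cannot be given. Relative depth, taken from the lowest values of 131 rarely detected genes within 0.5 on the log2 scale, was 0.975 to 1.0, and a larger difference would be missed.

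FPKM were used as log2(FPKM + 1) after a filter at a mean of 0.1, which kept 12770 of 17003 genes, and compared with limma 3.58.1 in R 4.3.3 (lmFit, then eBayes with trend=TRUE). Tests were two-sided, and p-values were adjusted after Benjamini and Hochberg over all genes kept, with a threshold of 0.05. Single genes were also compared by exact permutation over the 12870 splits of the mice, two-sided, whose smallest p is 0.000155. Correlations used 100000 permutations, within runs where run means were removed, and exact permutation within genotypes. Python 3.11.15 with numpy 2.4.6, scipy 1.17.1, pandas 2.3.3 and matplotlib 3.10.9 was used. The limma and exact steps were tested on simulated data.

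The members and lists were chosen with earlier results of these data known. Named genes are the 10 members, *Fgl1*, *Saa1*, *Dbp* and *Nr0b2*, the 3 genes with the highest mean FPKM of each other bile acid list, any list gene with an adjusted or unadjusted p under 0.05, and the genes of most similar pattern. *Alb*, *Krt7*, *Krt19*, *Cftr*, *Epcam*, *Sox9*, *Slc4a2*, *Spp1*, *Cd5l*, *Cyp2e1* and *Cyp2f2* are named outside this rule, and *Spp1* was chosen after its values were seen. *Slc51a*, *Fgf15* and *Fabp6* were not analysed here. Alternatives were another pseudocount, other filters and scalings, empirical Bayes made robust, blocking by replicate number, a term for the runs, and leaving out mice. Correlations without *Fgl1* LKO replicate 8 or the mice numbered 36 to 38 were chosen after the data were seen. Gene positions are from GENCODE vM39, and promoter sequences are from RefSeq, placed in GRCm39 by exact match.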

Additional observations from a re-analysis of the deposited data

Results flagged for a closer look

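In 32 genes named, the most extreme mouse of each genotype was set against its nearest neighbour on the log2(FPKM + 1) scale, in 64 groups of 8 mice, by Dixon's test. Chance gives such a gap in about 5% of groups, and 5 were found. None was in the 10 bile acid genes.

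*Fgl1* LKO replicate 8 was the lowest of its group by such a gap in 3 transporter genes. It had 6.36 FPKM of *Abcg8* against 15.9 in the next mouse, a gap of 0.662 of the range. It had 10.6 FPKM of *Abcg5* against 18.1, a gap of 0.576, and 156.5 FPKM of *Slco1b2* against 223.0, a gap of 0.555. The same mouse had the lowest median correlation with the other libraries (0.977), the highest *Spp1* (255.1 FPKM) and the lowest *Nr0b2* (9.24 FPKM). What sets it apart was not tested.

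*Scp2* stood out in *Fgl1* WT replicate 4, with 2689 FPKM against 1678 in the next mouse and a gap of 0.55 of the range. *Cyp39a1* stood out in *Fgl1* WT replicate 2, with 23.5 FPKM against 13.3 and a gap of 0.551.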

How the results depend on the processing

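No member passed the threshold under any of the 27 alternatives to the limma test (0 in each), among them the exact permutation test, whose smallest p is too high to pass for a single gene. Genes past it numbered 0, and 1, *Fgl1*, under rescaling to an equal sum, with a term for the runs of mouse numbers, without the mice numbered 36 to 38, and with a replicate block (adjusted p of *Fgl1* 0.0372, 0.025, 0.0453 and 0.0197, and 0.0197 to 0.223 over all alternatives). The replicate block left 0 members past the threshold. Same-numbered mice can come from different runs, as do mice 36 and 48 of replicate 1. Their r exceeded 0.1 in 3 of 8 pairs (-0.16 to 0.45, mean 0.07). Of pairs with different numbers, 17 of 56 did so (mean -0.01). Whether replicate numbers pair the mice was not tested. Fits without each mouse in turn gave 0 genes past the threshold. The 1 member with an unadjusted p under 0.05 became 0 with median-ratio scaling and quantile normalization, and 0 to 1 without each mouse. Some log2 fold changes turned sign. With the term for runs, they were -0.14 for *Cyp7b1*, 0.0855 for *Abcc2*, -0.64 for *Saa1*, -0.13 for *Cyp2c70* and -0.0483 for *Slco2b1*. Without the mice numbered 36 to 38, they were -0.22 for *Cyp7b1*, 0.10 for *Abcc2*, -0.96 for *Saa1*, -0.0966 for *Cyp2c70*, 0.0519 for *Slco1a1* and 0.0212 for *Slco1b2*. With median-ratio scaling and quantile normalization, they were -0.0183 and -0.0034 for *Baat* and -0.0134 and -0.0162 for *Slc27a2*. Without each mouse in turn, *Baat* ranged from -0.0767 to 0.0624, *Slc27a5* from -0.0487 to 0.0027, *Dbp* from -0.32 to 0.15, *Scp2* from -0.0778 to 0.0987, *Slc27a2* from -0.0318 to 0.0604 and *Slco2b1* from -0.0372 to 0.11. Of 260 member fold changes under alternatives, 246 kept their direction. Of the pairs of members, 4 passed, and 0 without the 2 farthest mice, 0 within *Fgl1* WT, 7 within *Fgl1* LKO, 6 with run means removed, 3 with median-ratio scaling and, in alternatives chosen after seeing the data, 6 without *Fgl1* LKO replicate 8 and 4 without the mice numbered 36 to 38. Without mice 36 to 38, *Cyp27a1* and *Cyp7b1* passed (r = -0.81, adjusted permutation p = 0.011), and *Cyp7b1* and *Abcc2* did not. With run means removed, *Slc27a5* also passed with *Cyp8b1* (r = 0.68, adjusted permutation p = 0.0201) and with *Abcc2* (r = 0.65, adjusted permutation p = 0.0328). Of the reference relations, 2 passed, also without *Fgl1* LKO replicate 8, and 0 without the 2 farthest mice, within either genotype, with run means removed, with median-ratio scaling or without the mice numbered 36 to 38. Fewer mice enter the fits within a genotype or without mice. Otherwise the cause was not tested. Read totals are unknown, so what depth limits cannot be given.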
